A study of Homo sapiens with 12 samples.

Results

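The genes described here are 10 members of the BCL2 family, which control the mitochondrial route of programmed cell death. They were taken by gene symbol from the deposited expression table, where each matched 1 row, and they are 10 of its 58676 genes. By role they are 6 BH3-only genes that promote death (PMAIP1, BBC3, BCL2L11, BIK, BMF and BID), 2 effector genes (BAX and BAK1) and 2 survival genes (BCL2L1 and MCL1). The RNA came from A549 cells, a long-established line of human lung carcinoma, as a control line (labelled Control1) and as 2 lines with a knockout of NFE2L1 (labelled NFE2L1 KO1 and NFE2L1 KO2, here KO1 and KO2). NFE2L1 encodes a transcription factor that raises proteasome gene expression when the proteasome is inhibited. Each line was given DMSO as vehicle or the proteasome inhibitor bortezomib at 200 nM, both for 4 h, and each of the 6 groups had 2 libraries. The labels do not say whether a knockout line is 1 clone or how the knockouts were made. They also do not say whether the libraries of a group came from separate cultures, so p-values measure only the spread between these libraries, which may be technical.

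BCL2 family proteins meet at the outer membrane of mitochondria. BAX and BAK1 can form pores there that release cytochrome c and lead to caspase activation, survival members such as MCL1 and BCL-XL (the main protein of BCL2L1) hold them in check, and BH3-only proteins bind the survival members or act on the effectors directly. Several of these proteins, MCL1 and NOXA (the protein of PMAIP1) among them, are themselves short-lived substrates of the proteasome. RNA measurements do not report on that protein turnover.

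The sequences in front of PMAIP1 and BBC3 are shown because these genes had the largest rises with bortezomib among the 10. Promoter windows of 300 bases from RefSeq (GRCh38.p14, 250 bases before to 50 after a start site) were found for 8 of the 10 genes, in 14 windows, and the stretches printed here stop at the first base of the gene in the deposited table. Both are written 5′ to 3′ on the gene's own strand, and capitals mark the motif match described after them. The first is chr18:59899746-59899947 on the plus strand (202 bases, its last base 49 before the RefSeq start site) and the second is chr19:47232767-47232917 on the minus strand (151 bases, its last base 100 before that start).
PMAIP1: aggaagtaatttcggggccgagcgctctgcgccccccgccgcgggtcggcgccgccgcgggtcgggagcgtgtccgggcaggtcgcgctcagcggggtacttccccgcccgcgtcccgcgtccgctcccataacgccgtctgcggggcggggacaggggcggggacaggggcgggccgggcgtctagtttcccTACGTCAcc
BBC3: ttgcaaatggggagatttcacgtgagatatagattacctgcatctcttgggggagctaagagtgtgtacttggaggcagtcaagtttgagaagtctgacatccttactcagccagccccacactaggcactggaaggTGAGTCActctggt
The letters TACGTCA in the PMAIP1 window are TGACGTA on the opposite strand, a sequence close to the cyclic AMP response element, and begin 57 bases before the RefSeq start. This motif was added to the search after the sequence had been read, and 1.39% of 35116 promoter windows hold it on either strand. TGAGTCA in the BBC3 window is the AP-1 motif TGANTCA and begins 113 bases before the start, and 7.71% of windows hold that motif. The heat shock pattern GAANNTTC, held by 6.77% of windows, was found 226 bases before the start of BAK1. It was also found 141 bases before a start of BMF, whose other window held no match. Searches on both strands for TGACGTCA (in 1.85% of windows), TGATGNAA (3.62%) and TGACGNAA (1.66%) found no match in the windows of the 8 genes. The matches do not overlap each other. A match describes the letters and is not a site shown to be bound.

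Levels are in FPKM (fragments divided by gene length in kilobases and by library depth), which lets genes be compared with each other. The 12 libraries held 13211608 to 23819258 assigned reads, which corresponds to an FPKM of 0.126 to 0.227 for 3 reads of a gene of 1 kilobase. Of 8 epithelial carcinoma markers 6 (KRT8, KRT18, KRT7, AKR1B10, NQO1 and ALDH1A1) were high in every library, while EPCAM (1.25 to 10.6 FPKM) and CDH1 (1.42 to 9.53) were low. KRT8 and KRT18 also differed between lines, with KRT18 at 194 and 147 in the control line and 586 and 419 in KO2 in vehicle. The 3 markers of alveolar type II cells, 3 of leukocytes and 2 of endothelium summed to at most 0.154, 0.111 and 0.0698 FPKM in a library. The 2 fibroblast markers summed to 1.45 to 5.2 FPKM in the vehicle libraries and 6.17 to 23.4 with bortezomib, nearly all of it COL1A1, since PDGFRB was at most 0.134. COL1A1 thus moved with the treatment, and its part in the bortezomib results was not tested. The FPKM of NFE2L1 in the knockout lines was 0.0982 to 0.256 times that of the matching control library in vehicle, and 0.189 to 0.337 times with bortezomib. Libraries stood apart by replicate. The mitochondrial share of reads was 12.3% to 19.3% in the 6 libraries whose titles end in R2, against 5.44% to 6.8% in the other 6 (titles ending in R1 or unnumbered). For PMAIP1, BCL2L11, BID, BAX, BAK1, BCL2L1 and MCL1 the R2 library was the lower of its group in 6 of 6 groups. By its median the difference was largest for BCL2L1, where R2 had 0.403 to 0.606 times the FPKM of its partner (median 0.536). Lower values in R2 were not particular to these genes. Over all genes that averaged an FPKM of 1 or more, the median log2 difference of R2 from its partner was -0.34 to -0.114 by group. Tests are therefore given from limma on log2(FPKM + 1) without a replicate term and with the suffix as a block, over the 12194 genes that averaged an FPKM of 1 or more, and a gene is called at a Benjamini-Hochberg adjusted p under 0.05. Of the 10 genes, 9 met that mean and BMF did not.

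In the control line in vehicle MCL1, BAX and BCL2L1 were the abundant members, and the BH3-only genes other than BID were the scarce ones. MCL1 had the highest mean FPKM at 42.6 ± 9.9 (SD, n = 2). BAX followed at 34.0 ± 10.9 (SD, n = 2), BCL2L1 at 25.1 ± 8.71 (SD, n = 2), BAK1 at 7.37 ± 1.53 (SD, n = 2) and BID at 7.22 ± 0.192 (SD, n = 2). These neighbours in the order overlapped in their libraries, except that both BCL2L1 libraries were above both of BAK1. PMAIP1 was next at 3.89 ± 0.974 (SD, n = 2), below both BID libraries. BCL2L11 at 1.82 ± 1.11 (SD, n = 2) and BBC3 at 1.75 ± 0.455 (SD, n = 2) lay close together, and BCL2L11 ranged so widely that the 2 could not be ordered. BIK at 0.323 ± 0.02 (SD, n = 2) rested on 6 and 7 reads, and BMF at 0.114 ± 0.0783 (SD, n = 2) on 6 and 22.

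**Figure D1:**
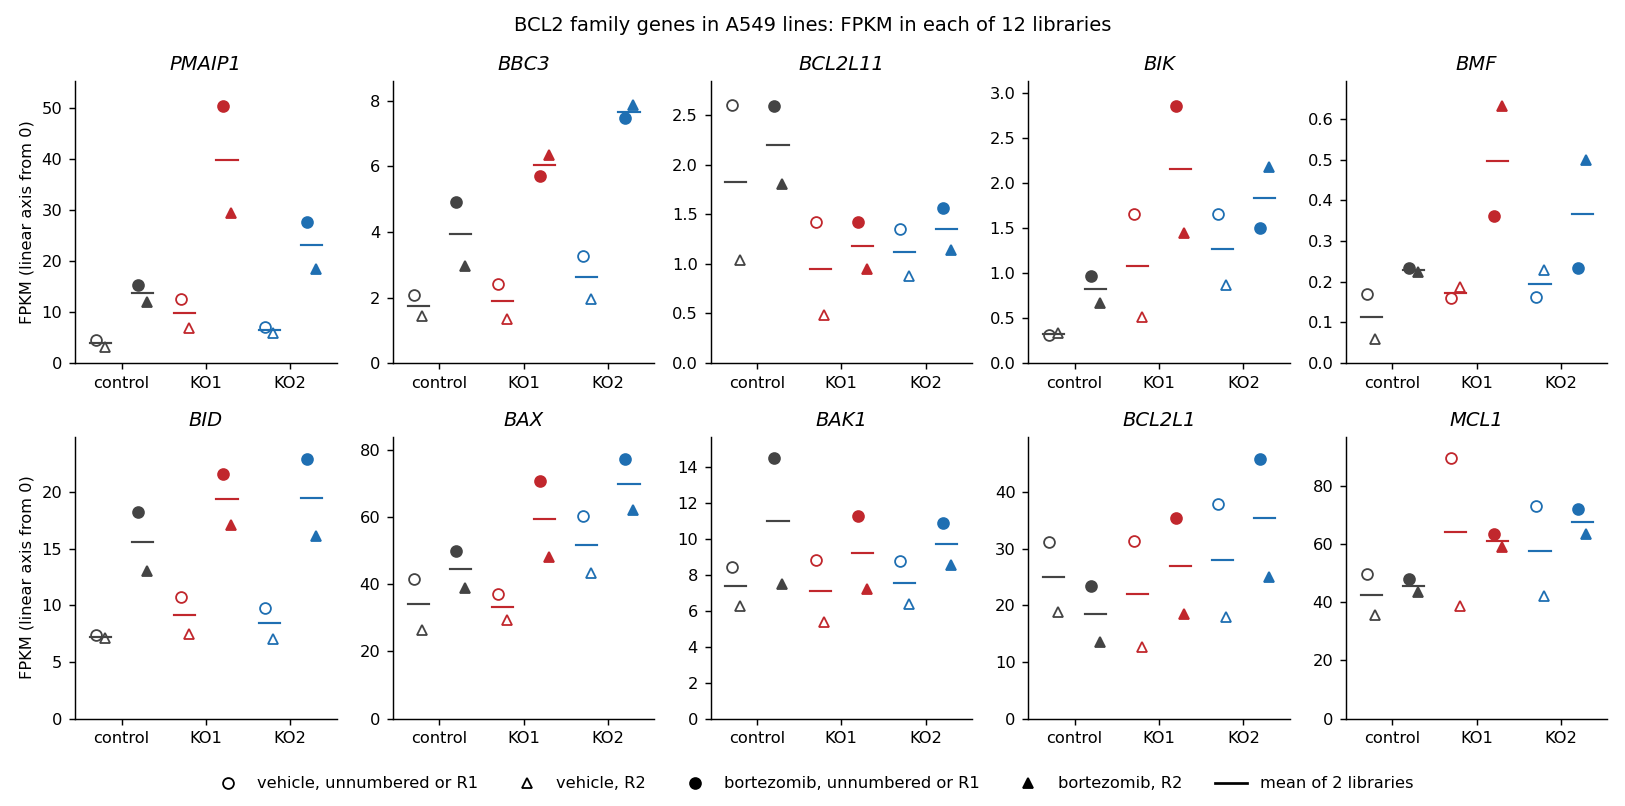
FPKM of each of the 10 genes (vertical axes, linear from 0) in the control line, KO1 and KO2. Open symbols are vehicle and filled symbols bortezomib, circles are the unnumbered or R1 library and triangles the R2 library, and the short line is the mean of 2 libraries. The 6 bortezomib libraries of BID sit between 13 and 22.9 FPKM, above all 6 vehicle libraries, while the vehicle and bortezomib libraries of BCL2L1 overlap in every line.

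The first comparison asked what the proteasome inhibitor did to these genes, averaged over the 3 lines. PMAIP1, BBC3 and BID rose with bortezomib, and no member fell. These 3 of 9 tested members were called without the block, where 11.6% of all tested genes were called and 4.85% were called higher. With the block 6 of 9 were called, all higher, where 54.9% of all genes were called and 27% were called higher. All 9 log2 fold changes were above 0, with a median of 0.47, beside a median of -0.01 over all 12194 genes. RNA from whole cultures cannot tell fewer cells of a type from less RNA per cell.

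PMAIP1 encodes NOXA, a BH3-only protein that binds MCL1. In the control line its FPKM was 4.58 and 3.21 in vehicle and 15.4 and 12 with bortezomib. In KO1 it was 12.5 and 6.97 in vehicle against 50.3 and 29.4, and in KO2 it was 7.06 and 5.83 against 27.7 and 18.5. Within each line both bortezomib libraries were above both vehicle libraries, although the KO1 vehicle library at 12.5 exceeded the lowest control library given bortezomib. Matched by suffix, the 6 bortezomib-to-vehicle ratios ran from 3.18 to 4.22, with a median of 3.83. The rise on the log2 scale was 1.73 (SE 0.23, limma adjusted p 0.00221), the 56th largest among all tested genes. Its ratios were 3.36 and 3.75 in the control line, 4.01 and 4.22 in KO1 and 3.18 to 3.92 in KO2, so the ranges of the control line and KO2 overlapped and both KO1 ratios were higher.

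BBC3 encodes PUMA, a BH3-only protein that binds all survival members of the family. Its FPKM in the control line was 2.07 and 1.43 in vehicle and 4.9 and 2.96 with bortezomib. In KO1 it was 2.42 and 1.34 against 5.71 and 6.36, and in KO2 3.28 and 1.96 against 7.47 and 7.87. Groups did not overlap within a line, and the lowest bortezomib library, in the control line, was below the highest vehicle library, in KO2. The 6 matched ratios ran from 2.07 to 4.76, and the 2 highest were the R2 pairs of KO1 and KO2. The rise was 1.14 on the log2 scale (SE 0.18, limma adjusted p 0.00464). The microRNA genes within BBC3 are MIR3191 on its strand and MIR3190 on the other, and whether counting used strand is not given in the sources used here.

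BID encodes a BH3-only protein that caspase-8 cleaves into an active form, which links death receptors to mitochondria. Its FPKM in vehicle was 7.36 and 7.08 in the control line, 10.7 and 7.5 in KO1 and 9.79 and 7.03 in KO2. With bortezomib it was 18.2 and 13, then 21.6 and 17.1, then 22.9 and 16.1. Every bortezomib library was above every vehicle library, whichever the line. The matched ratios ran from 1.83 to 2.48 with a median of 2.28. The rise was 1.04 (SE 0.2, limma adjusted p 0.0106).

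The other 3 BH3-only genes were low, and their values rest on few reads. BIK, whose protein acts at the endoplasmic reticulum, had 6 to 46 reads per library. Its matched ratios ran from 0.906 to 3.14 and 5 of 6 were above 1, and the log2 difference of 0.47 was called with the block (limma adjusted p 0.0281) but not without it (0.169). Leaving out any 1 of 7 of the 12 libraries ended that call, with limma adjusted p-values of up to 0.0911. BMF, whose protein is held at the cytoskeleton in healthy cells, had 6 to 65 reads per library. Its matched ratios were above 1 in 6 of 6 pairs, from 1.39 to 3.81. In a further limma fit on log2(FPKM + 0.1) with 20199 genes its difference was 0.79 (SE 0.3, adjusted p 0.143), and 0.0369 was the adjusted p with the block. BCL2L11, which encodes BIM, had matched ratios of 0.996 to 1.95. Its log2 difference of 0.19 was not called without the block (limma adjusted p 0.607) or with it (0.161). BMF-AS1 overlaps BMF and MIR4435-2HG overlaps BCL2L11 on the opposite strand.

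**Figure D2:**
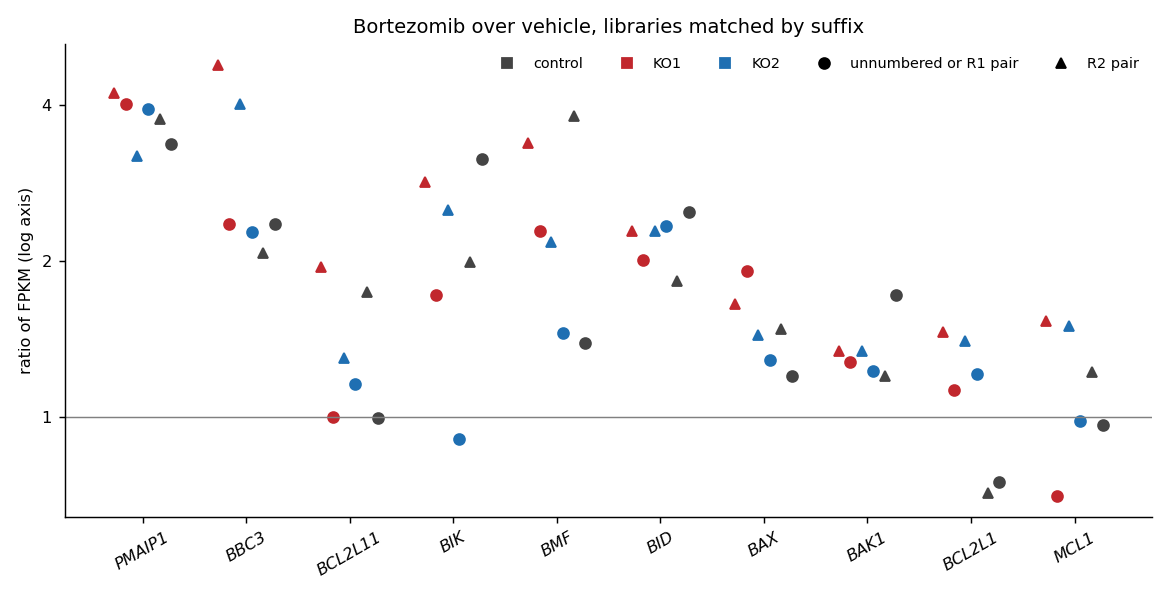
Ratio of FPKM with bortezomib to FPKM with vehicle (log axis) for each gene, 1 point per pair of libraries of the same line matched by suffix. Circles are unnumbered or R1 pairs, triangles R2 pairs and colours the lines. PMAIP1 lies between 3.18 and 4.22 in all 6 pairs, and BCL2L1 lies below 1 in both control pairs and above 1 in the 4 knockout pairs.

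Of the effectors, BAX had matched ratios of 1.2 to 1.91, and BAK1 of 1.2 to 1.72, above 1 in 6 of 6 pairs for each. BAX FPKM in the control line was 41.7 and 26.3 in vehicle against 50 and 39.0 with bortezomib, so the groups overlapped. In KO1 it was 37.0 and 29.3 against 70.7 and 48.2, and in KO2 60.2 and 43.2 against 77.4 and 62.1, with no overlap in either knockout line. The log2 difference of BAX over the lines was 0.55, not called without the block (limma adjusted p 0.179) and called with it (0.000557). BAK1 FPKM was 5.36 to 8.83 in the 6 vehicle libraries and 7.19 to 14.5 in the 6 with bortezomib. Its log2 difference was 0.38, with a limma adjusted p of 0.332 (0.00633 with the block). Both block calls held when any 1 library was left out. GGNBP1 overlaps BAK1 on the opposite strand.

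The survival genes were not called in the mean over lines by either fit. MCL1 FPKM in vehicle was 49.6 and 35.6 in the control line, 89.5 and 38.6 in KO1 and 72.9 and 42.2 in KO2. With bortezomib it was 47.8 and 43.4, then 63.2 and 58.8, then 71.8 and 63.2. Its 6 matched ratios split by replicate, with the 3 R2 pairs above 1 (1.22, 1.53 and 1.5) and the 3 other pairs below it (0.964, 0.706 and 0.985). The log2 difference was 0.15 (SE 0.28, limma adjusted p 0.795, and 0.419 with the block). BCL2L1 FPKM in the control line was 31.2 and 18.9 in vehicle and 23.5 and 13.5 with bortezomib. In KO1 it was 31.4 and 12.7 against 35.4 and 18.5, and in KO2 38.0 and 18.0 against 45.8 and 25.1. Vehicle and bortezomib libraries overlapped in every line for BCL2L1. Its matched ratios were 0.715 and 0.751 in the control line, 1.13 to 1.46 in KO1 and 1.21 to 1.4 in KO2. The log2 difference over the lines was 0.09 (SE 0.34, limma adjusted p 0.901, and 0.377 with the block). ADAMTSL4-AS1 overlaps MCL1 on the same strand, and ABALON and AL117381.1 overlap BCL2L1 on the other.

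**Figure D3:**
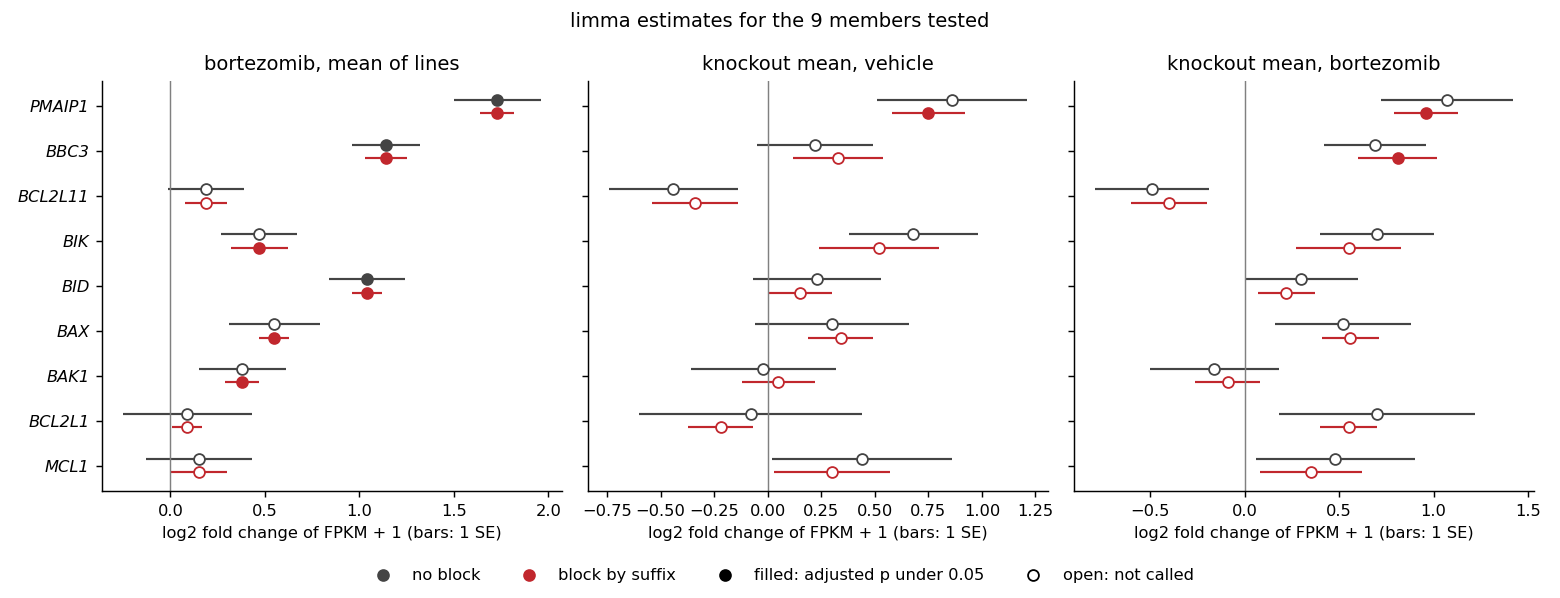
limma log2 fold changes of FPKM + 1 (horizontal axes, bars of 1 SE) for the 9 tested genes in 3 comparisons, without the block in grey and with it in red. Filled points are called at an adjusted p under 0.05. PMAIP1, BBC3 and BID are filled in both fits for bortezomib, and in the knockout comparisons filled points occur with the block alone.

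Within single lines no member was called without the block. Of all genes, 0.467% were called for the control line, 0.238% for KO1 and 0.32% for KO2. In each line 3 of 9 members had an unadjusted limma p under 0.05. The same level was reached by 1498 (control line), 1153 (KO1) and 1169 (KO2) of all 12194 genes. With the block PMAIP1, BBC3 and BID were called higher in each line, where 32.4%, 27.7% and 27% of genes were called (16.1%, 13.9% and 12.7% higher), joined by BAK1 in the control line and BAX in KO1. The PMAIP1 differences were 1.59 for the control line, 1.93 for KO1 and 1.67 for KO2 (limma adjusted p 0.000251, 0.00014 and 0.000239 with the block, and 0.127, 0.119 and 0.125 without). For BBC3 they were 0.82, 1.31 and 1.28 (limma adjusted p 0.0135, 0.00212 and 0.00223 with the block). For BID they were 0.99, 1.02 and 1.12 (limma adjusted p 0.00131, 0.00158 and 0.00092 with the block). The block calls of PMAIP1 and BID in each line, and of BBC3 in both knockout lines, held with any 1 library left out. The call of BBC3 in the control line was lost without any 1 of the 4 control libraries (limma adjusted p 0.0658 to 0.131). The BAK1 call in the control line (0.47, limma adjusted p 0.0464) was lost in 8 of 12 such fits, with adjusted p-values of up to 0.45. That of BAX in KO1 (0.81, limma adjusted p 0.0044) was lost without the R1 bortezomib library of KO1 (0.0649).

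The second comparison asked how the knockout lines differed from the control line in vehicle. No member was called without the block, where 0.344% of genes were. An unadjusted limma p under 0.05 was found for 2 of 9 members and for 561 of all 12194 genes. With the block 1 of 9, PMAIP1, was called higher, where 6.18% of genes were called and 3.42% were called higher. Matched ratios of knockout to control use each control library for both KO1 and KO2, so the 4 pairs within a treatment are not independent. PMAIP1 had 1.54 to 2.74 times the FPKM of the matching control library in 4 of 4 pairs, and both libraries of each knockout line were above both control libraries. Its log2 difference was 0.75 with the block (SE 0.17, limma adjusted p 0.0319) and 0.86 without it (SE 0.35, adjusted p 0.935). The call with the block was lost without any 1 of the 4 control libraries or the R2 vehicle library of KO2 (limma adjusted p 0.0562 to 0.492). By line, the difference from control with the block was 1.0 for KO1 (limma adjusted p 0.016) and 0.51 for KO2 (0.172).

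BCL2L11 and BIK lay on opposite sides of the control line in vehicle, neither past the threshold. BCL2L11 FPKM was 2.6 and 1.04 in the control line, 1.42 and 0.485 in KO1 and 1.35 and 0.881 in KO2. All 4 matched ratios were below 1, from 0.469 to 0.851, but the libraries overlapped, and the log2 difference of -0.44 had a limma adjusted p of 1 (0.365 with the block). BIK FPKM was 0.308 and 0.337 in the control line, 1.66 and 0.509 in KO1 and 1.66 and 0.872 in KO2, so both libraries of each knockout line were above the control. The BIK difference was 0.68 (limma adjusted p 1, and 0.326 with the block), on 6 and 7 reads in the control libraries. MCL1 had ratios of 1.08 to 1.8 in 4 of 4 pairs, with overlapping libraries. The other 6 members had ratios on both sides of 1. Between KO1 and KO2 in vehicle no member was called in either fit, where 0.0656% of genes were called without the block and 3% with it. The 2 largest differences there were 0.48 for PMAIP1 (limma adjusted p 1, and 0.168 with the block) and -0.62 for BAX (1 and 0.0601).

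The third comparison set the knockout lines against the control line with bortezomib in both, and it shares its libraries with the first. No member was called without the block (0.164% of genes were). An unadjusted limma p under 0.05 was found for 3 of 9 members and for 697 of all 12194 genes. With the block 2 of 9, PMAIP1 and BBC3, were called higher, where 7.66% of genes were called and 3.9% were called higher. PMAIP1 had 1.54 to 3.27 times the matching control FPKM, and its difference was 0.96 with the block (limma adjusted p 0.0117) and 1.07 without it (0.506). Without the R2 control library given bortezomib the block call was lost (limma adjusted p 0.155). BBC3 had 1.17 to 2.66 times the control FPKM, and all 4 knockout libraries, at 5.71 to 7.87, were above the control libraries at 4.9 and 2.96. The BBC3 difference was 0.81 with the block (limma adjusted p 0.0498) and 0.69 without it (0.709), and the block call was lost in 8 of 12 fits that left out 1 library (adjusted p up to 0.401).

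The remaining members had smaller or less certain differences under bortezomib. BCL2L11 had 0.525 to 0.634 times the control FPKM in 4 of 4 pairs, and its 4 knockout libraries, at 0.947 to 1.56, were below both control libraries, at 2.59 and 1.8. The BCL2L11 difference of -0.49 was not called (limma adjusted p 1, and 0.272 with the block). BIK, BID, BAX, BCL2L1 and MCL1 each had ratios above 1 in 4 of 4 pairs, of which those of BCL2L1 were 1.37 to 1.95. With the block by suffix BAX (0.56, limma adjusted p 0.0611) and BCL2L1 (0.55, 0.0639) were not called. In the alternative block that treats unnumbered libraries as R1 both were called higher, BAX at 0.52 (limma adjusted p 0.0216) and BCL2L1 at 0.70 (0.00956). BAK1 had ratios of 0.747 to 1.14, with 3 of 4 below 1, and BMF of 0.998 to 2.82, with 3 of 4 above 1.

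The interaction asked whether the bortezomib response of the knockout lines differed from that of the control line. No member was called without the block or with it, where 0% of genes were called in both fits, and 115 genes without the block and 1305 with it had an unadjusted limma p under 0.05. No member passed that unadjusted level without the block and 1, BCL2L1, did with it. The BCL2L1 difference of responses was 0.78 (SE 0.73, limma adjusted p 1), and with the block the SE was 0.18 and the adjusted p 0.169. For PMAIP1 the difference was 0.21 (SE 0.49, limma adjusted p 1, and 0.765 with the block). For BBC3 it was 0.48 (SE 0.38, limma adjusted p 1, and 0.531 with the block). The other 6 tested members had differences of -0.14 to 0.22.

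Ratios between members of 1 library do not depend on the depth of that library. PMAIP1 FPKM was 9.24% and 9.01% of MCL1 FPKM in the control line in vehicle and 32.2% and 27.7% with bortezomib. In KO1 it was 14.0% and 18.1% in vehicle, then 79.6% and 50%, and in KO2 9.68% and 13.8%, then 38.5% and 29.3%. Every bortezomib library was above every vehicle library. The summed FPKM of the 6 BH3-only genes was 21.0% to 33.2% of the summed BCL2L1 and MCL1 in the 6 vehicle libraries and 52.2% to 83.4% in the 6 with bortezomib, without overlap. The 2 KO1 libraries given bortezomib were the highest, at 83.4% and 72.3%. PMAIP1 alone made up 24.4% to 43.3% of the BH3-only sum in vehicle and 36.4% to 61.2% with bortezomib, which overlapped. PMAIP1 and BID together, both called higher above, made up most of that sum in every library. The sum therefore mainly restates those 2 genes. The effectors BAX and BAK1 summed to 37.9% to 82.3% of the survival genes in vehicle and 71.5% to 90.6% with bortezomib, also with overlap.

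**Figure D4:**
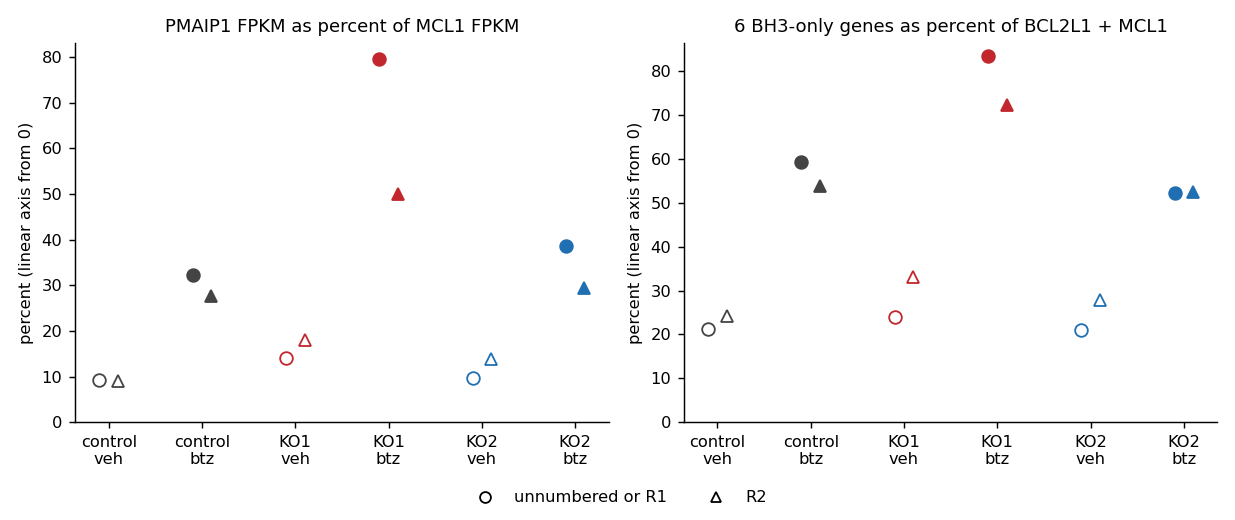
PMAIP1 FPKM as a percent of MCL1 FPKM (left) and the summed FPKM of the 6 BH3-only genes as a percent of BCL2L1 plus MCL1 (right), on linear axes from 0, in vehicle (veh, open) and bortezomib (btz, filled). Each point is 1 library, circles unnumbered or R1 and triangles R2. In both panels the 6 bortezomib libraries lie above the 6 vehicle libraries, and the R1 library of KO1 given bortezomib is highest, at 79.6% and 83.4%.

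Other genes of the pathway were described from 5 lists, by their response to bortezomib over the 3 lines. Transcription factors that act on BH3-only genes had 11 of 12 members tested, of which 2 were called higher without the block and 9 were not called. ATF3, a stress-induced factor, had FPKM of 0.213 to 0.749 in the 6 vehicle libraries. With bortezomib ATF3 was at 11.4 and 5.11 in the control line, 27.3 and 21.2 in KO1 and 24.4 and 21.1 in KO2, so no libraries overlapped. The rise of ATF3 was 3.52 on the log2 scale (SE 0.21, limma adjusted p 3.59e-05). DDIT3, which encodes CHOP of the unfolded protein response, had FPKM of 1.56 to 3.02 in vehicle and 7.72 to 38.2 with bortezomib, and rose by 2.73 (SE 0.23, limma adjusted p 0.000256). SP1, a factor of many promoters, had a difference of -0.48 (limma adjusted p 0.288, and 0.00146 with the block). The list's median was 0.43. With the block 7 were called higher and 2 lower. These counts and those of the other lists stand beside 54.9% of all genes called with the block. Without it the share was 11.6%, and 4.85% were called higher.

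The death receptor and caspase-8 list had 10 of 13 members tested, with 2 called higher, 1 called lower and a median of 0.20. Those calls are without the block, where 11.6% of all genes were called. With the block 4 were called higher and 1 lower, where 54.9% of all genes were called. TNFRSF10B, a receptor of the death ligand TRAIL, had FPKM of 54.2 and 126 in the control line in vehicle and 175 and 331 with bortezomib. The rise of TNFRSF10B over the lines was 1.51 (limma adjusted p 0.0294, and 2.81e-06 with the block). FAS, the receptor of FAS ligand, rose by 1.36 (limma adjusted p 0.021, and 8.03e-06 with the block), from 4.88 to 12.2 FPKM over the vehicle libraries to 14.2 to 30.5 with bortezomib. TNFRSF1A, a receptor of tumour necrosis factor, fell by 1.51 (limma adjusted p 0.028, and 1.91e-06 with the block), from 124 to 283 FPKM in vehicle to 46.3 to 101. For TNFRSF10B (54.2 to 137 FPKM in vehicle, 175 to 371 with bortezomib), FAS and TNFRSF1A, vehicle and bortezomib libraries did not overlap. CASP8, whose protein cleaves BID, had a difference of -0.15 (limma adjusted p 0.65). All 3 receptors were higher in the R2 library of every group. Without the block, leaving out 1 library ended the call of TNFRSF10B in 8 of 12 fits, of FAS in 5 and of TNFRSF1A in 6, with limma adjusted p-values of up to 0.0831, 0.0616 and 0.088.

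The mitochondrial death machinery (caspases, their activators and inhibitors, and other proteins of mitochondria) had 17 of 18 members tested. Without the block 1 was called higher and 1 lower, near the 11.6% of all genes called, and the median was 0.03. BIRC2, an inhibitor of apoptosis protein, rose by 1.17 (SE 0.18, limma adjusted p 0.0045), from 9.43 to 14.7 FPKM in vehicle to 23.8 to 35.1 with bortezomib. BIRC5 encodes survivin, which also acts in mitosis, and fell by 1.35 (limma adjusted p 0.0362, and 7.56e-05 with the block). Its FPKM was 16.8 to 54.2 in vehicle and 8.74 to 21.6 with bortezomib, and the only overlap was within KO1 (16.8 for its R2 vehicle library, 21.6 for its R1 library with bortezomib). Without the block the BIRC5 call was lost in 9 of 12 fits that left out 1 library, and after scaling to a common sum (limma adjusted p 0.0832). AIFM1, which encodes a mitochondrial flavoprotein, had a difference of -0.58 (limma adjusted p 0.183). With the block 5 members of the list were called higher and 4 lower.

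No gene of the remaining lists was called for bortezomib without the block, where 11.6% of all genes were called. Of the other BCL2 family genes 8 of 13 were tested, with a median of 0.18, and with the block 4 were called higher and 2 lower. Their extremes were BNIP3L, a mitophagy receptor, at 0.53 (limma adjusted p 0.47), BOK, an effector-like member, at 0.45 (0.216), BAD, a BH3-only gene, at -0.36 (0.325) and BCL2A1, a survival member, at -0.59 (0.443). BCL2 itself was under the expression limit, at a mean FPKM of 0.146. The last list was drawn up for ubiquitin-linked turnover of BCL2 family proteins, MCL1, NOXA, BIM and BID among them. It had 11 of 12 tested and a median of 0.35, and with the block 6 were called higher and 1 lower. The extremes of that list were CUL5 at 0.45 (limma adjusted p 0.38), ITCH at 0.42 (0.346), FBXO10 at -0.12 (0.685) and USP13 at -0.59 (0.171).

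**Figure D5:**
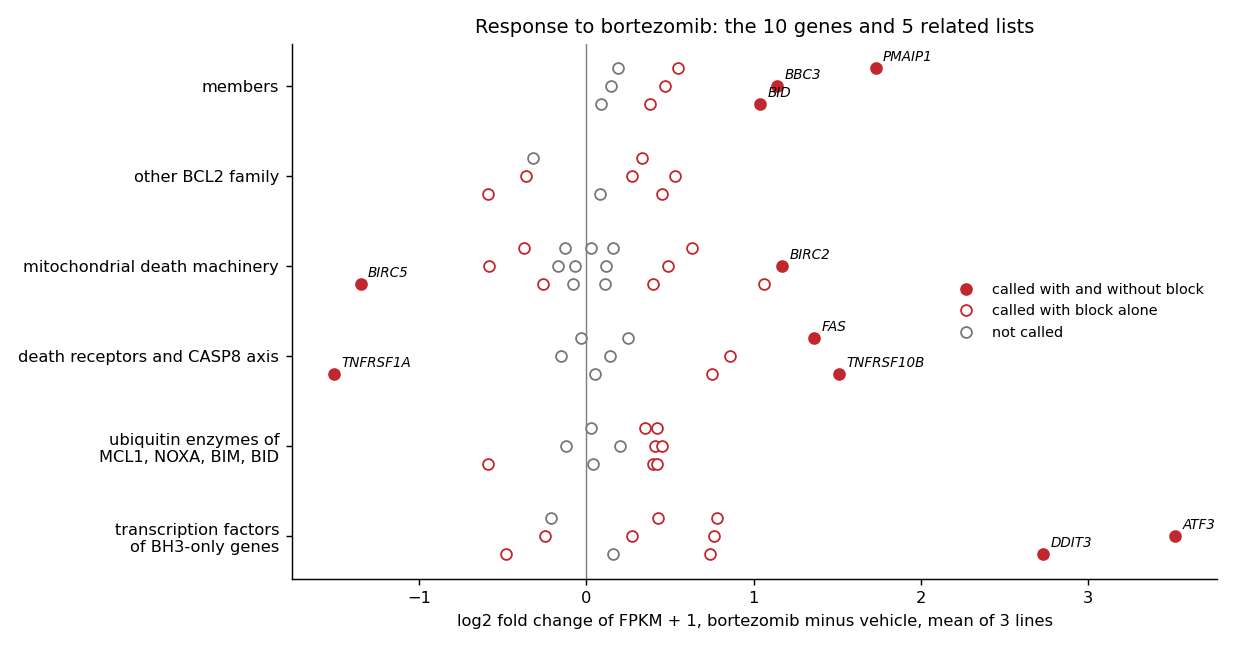
limma log2 fold change of FPKM + 1 with bortezomib over the mean of 3 lines (horizontal axis) for each tested gene, with the 9 tested members in the top row and the 5 lists below. Filled red points were called with and without the block and are named, open red points with the block alone, and grey points in neither. ATF3 at 3.52 and DDIT3 at 2.73 lie above PMAIP1 at 1.73.

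In the knockout lines in vehicle no gene of the 5 lists was called without the block. With it BCL2A1 (-1.28, limma adjusted p 0.0228) and BOK (-0.80, adjusted p 0.0491) were called lower and SP1 (0.73, adjusted p 0.0299) higher. These are 2 of the 8 tested genes of the other BCL2 family and 1 of the 11 tested transcription factors. None was called among the 17, 10 and 11 tested genes of the remaining lists. Of all genes 6.18% were called in that fit. BCL2A1 FPKM in vehicle was 4.16 and 3.34 in the control line but 4.1 and 0.445 in KO1 and 4.09 and 0.429 in KO2, so the difference lay in the R2 libraries. Without the R2 vehicle library of the control line the limma adjusted p was 0.59 for BCL2A1, 0.42 for BOK and 0.515 for SP1. Leaving out any 1 of the 12 libraries in turn ended the block call in 3 fits for BCL2A1, 8 for BOK and 4 for SP1.

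The genes whose profile was nearest to each of the called members were found by the root mean square difference over 5 log2 fold changes (bortezomib in each of 3 lines, and each knockout line against control in vehicle), among the 12194 tested genes. These profiles share control libraries, and the distances are a description. For PMAIP1 they included SLC12A7 (0.359) and RP11-50D9.4 (0.371). For BBC3 they were ZNF385A (0.104), YPEL2 (0.107) and STIP1 (0.119). For BID they were XPOT (0.066), THAP9-AS1 (0.079) and RNF6 (0.089). The PMAIP1 neighbours were more distant than those of the other 2 genes. Against its own differences in vehicle of 1.1 for KO1 and 0.61 for KO2, SLC12A7 had 0.55 and 0.4 and RP11-50D9.4 had 0.61 and 0.44.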

How the data were processed

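RNA-seq of 12 libraries from A549 lines (2 in each of 6 groups, taken from the labels) was used. The deposited values are FPKM per gene, made by the authors, beside a deposited gene length. Per the submitters' processing notes the tools were CASAVA, STAR 2.5, HTSeq 0.6.1 and DESeq2 and the build hg19, with no role or order given, while the positions in the deposited table are those of GENCODE 29 on GRCh38 for all 10 genes and for 95.3% of all genes. FPKM multiplied by the deposited length gave whole reads (within 0.05 of a read) for 100% of values, which gave each library's depth. Low genes such as BIK and BMF are limited by their read counts. Fold changes on the log2(FPKM + 1) scale understate the change of low genes.

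The 12194 genes (20.8%) that averaged an FPKM of 1 or more were fitted in limma 3.58.1 (R 4.3.3; eBayes with a trend after lmFit and contrasts.fit) with 1 mean per group and Benjamini-Hochberg adjustment over all of them. An exact permutation test of 2 libraries against 2 cannot go below 0.333 and was not used. The replicate suffix of the titles was fitted as a block beside this. It pairs the libraries: across genes, the R2-to-partner difference of 1 group correlated with that of another, with r of 0.70 to 0.89 over all 15 pairs of groups (median 0.81). R1 occurs in knockout groups alone and no suffix in control groups alone, so in the block the knockout comparisons are tied mainly through the R2 libraries. Ratios of an R1 to an unnumbered library match the libraries that are not R2. Alternatives were a block with unnumbered libraries as R1, voom on recovered reads (alone and with the block), other pseudocounts, filters and scalings, and leaving out each library. The block with a library left out, and the fits with a pseudocount and filter of 0.1, were added after seeing the data. The fits were also run on simulated data, and no result given here rests on that run.

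The 10 genes, the lists and the motifs were chosen with earlier results of these data known. The text names all 10 genes, the 2 largest rises and 2 largest falls of each list for bortezomib, list genes called in the knockout lines in vehicle, and the 3 nearest genes of each member called without the block, except a few genes that are not reported here. Promoter windows are from RefSeq (GRCh38.p14). Tables were read with Python 3.11.15, numpy 2.4.6 and pandas 2.3.3.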

Additional observations from a re-analysis of the deposited data

Results flagged for a closer look

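The matched bortezomib ratios of BCL2L1 lay on opposite sides of 1 in the control line and the knockout lines, but no line had a called response. Its FPKM was lower with bortezomib in both matched pairs of the control line (ratios 0.715 and 0.751) and higher in all 4 pairs of the knockout lines (1.13 to 1.46). The difference of the log2 responses was 0.78, and 0.40 to 1.15 when 1 library was left out without the block. The test of that difference did not pass the threshold without the block (limma adjusted p 1) or with it (0.169), nor in any of the 12 fits with the block that left out 1 library (adjusted p 0.145 to 0.435). BCL2L1 was also the member with the widest median gap between the R2 libraries and their partners (a ratio of 0.536), and the part of that gap in this result was not tested.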

How the results depend on the processing

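PMAIP1, BBC3 and BID were called higher with bortezomib over the 3 lines in 25 of 25 alternative settings, with log2 fold changes of 1.6 to 1.9, 1.04 to 1.49 and 0.96 to 1.14 and highest limma adjusted p-values of 0.0101, 0.0183 and 0.0412. The replicate block moved the counts of members called most. Given in the order block by suffix, block with unnumbered libraries as R1, voom with the block, and the added fit with a pseudocount and filter of 0.1 and the block, they were 6, 6, 6 and 7 for bortezomib over the lines (3 without the block). They were 4, 4, 5 and 3 in the control line, 4, 4, 4 and 4 in KO1, 3, 4, 4 and 3 in KO2, 1, 1, 1 and 1 for the knockout lines in vehicle and 2, 4, 4 and 1 with bortezomib (0 without the block in each). Voom with the block called 1 member between KO1 and KO2. Quantile normalization called 1 member, PMAIP1, for bortezomib in each line, with limma adjusted p-values of 0.0481, 0.0347 and 0.041. Leaving out 1 library without the block gave 3 to 3 members for bortezomib over the lines and 0 to 0 in every other comparison. Uncalled differences changed sign when a library was left out for BCL2L1 (-0.12 to 0.30 over the lines, -0.28 to 0.96 in KO1 and -0.16 to 0.88 in KO2) and for MCL1 (-0.05 to 0.35 over the lines). Over all genes the block by suffix moved the calls from 1415 to 6690 for bortezomib over the lines, from 57 to 3952 in the control line, 29 to 3378 in KO1 and 39 to 3297 in KO2. For the knockout lines the calls went from 42 to 754 in vehicle and 20 to 934 with bortezomib, and between KO1 and KO2 from 8 to 366. Read depth limits BIK and BMF most, and 2 libraries a group limit every test.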
